A study of Drosophila melanogaster with 16 samples.

Results

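The Drosophila melanogaster genes described here are the glutathione S-transferases (GSTs) of 6 cytosolic classes, followed in eye discs that lack Polycomb group functions. Members were all genes whose FlyBase symbol begins with GstD, GstE, GstO, GstS, GstT or GstZ, which gave 35 of the 23769 genes with a symbol in the gene table. They comprised 11 Delta, 14 Epsilon, 3 Omega, 1 Sigma, 4 Theta and 2 Zeta genes. In all, 25 members were listed as changed in at least 1 of 4 mutants and 10 in none.

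RNA-seq was made from eye discs of L3 larvae, the larval epithelium that forms the adult eye and head. The mutants were Ez731 and Suz12, each on an FRT2A chromosome and set against FRT2A wild type, PH505 on FRT19A against FRT19A wild type, and Psc_Suz2_1.b8 on FRT42D, shortened here to Psc_Suz2, against FRT42D wild type. FRT is a recombination target site that mutants and controls both carry, and the labels do not give the share of mutant tissue in a disc. E(z) and Su(z)12 belong to PRC2, which methylates histone H3 at lysine 27, and ph, Psc and Su(z)2 encode PRC1 subunits, which hold developmental genes silent. Each group was 1 sample that stood for replicates 1 and 2 together, and the authors' deposited tables hold 1 value per gene and comparison, so a spread between replicates cannot be given and the read depth is unknown.

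Cytosolic GSTs join the tripeptide glutathione to reactive or foreign molecules, which makes them soluble and lets exporters remove them. Delta and Epsilon are insect classes that grew by tandem duplication and are known for insecticide resistance and for their response to oxidative stress through the transcription factor CncC, which the repressor Keap1 holds in check. Some members have a metabolic task instead: GstE14, also called noppera-bo, is needed to make ecdysteroids in the prothoracic gland, and Zeta enzymes isomerise maleylacetoacetate in tyrosine breakdown.

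The tables list genes called by edgeR at a false discovery rate under 5%, and every adjusted p given here is the authors' own. Log2 folds were read as mutant over control, since E(z) stood at −0.99 in the authors' deposited Ez731 table and Psc at −3.94 in that of Psc_Suz2. Su(z)12 is not listed in the Suz12 table, nor Su(z)2 in that of Psc_Suz2. In the table labelled PH505 the deposited folds of ph-p and ph-d were 0.78 and 0.90, and those of Psc and Su(z)12 were 0.96 and 0.40. The transcript levels of ph alone do not settle that label either way, and its directions are given for the table so labelled. Levels in CPM, read counts scaled to library size, for mutant and control were computed from the deposited mean log2 CPM and fold of the same gene, weighting both groups equally. The FRT2A level computed separately from the Ez731 and Suz12 tables differed by at most 0.082 (log2) over the 631 genes in both. CPM does not correct for gene length, so levels are compared between groups and never between genes.

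Counts of called members differed widely between mutants, as did those of all genes. Ez731 had 5 members called, 2 higher and 3 lower, where 9.87% of the 8934 genes tested by the authors were called, 3.46% higher and 6.41% lower. Suz12 had 5 called, 4 higher and 1 lower, where 14.6% of all 8907 genes were called, 5.89% higher and 8.73% lower. The table labelled PH505 had 9 called, 4 higher and 5 lower, where 26.7% of 8804 genes were called, 12.1% higher and 14.6% lower. Psc_Suz2 had 22 called, 17 higher and 5 lower, where 69.4% of 8886 genes were called, 35.5% higher and 33.9% lower.

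Of the 35 members these were 14.3%, 14.3%, 25.7% and 62.9% in Ez731, Suz12, PH505 and Psc_Suz2, shares close to those of all genes, although the number of members among the genes tested is unknown. The split of directions in Psc_Suz2, 77.3% of called members higher, stood beside 51.1% of all called genes. Median deposited log2 folds of called members were −0.98 in Ez731, 0.56 in Suz12, −0.39 in PH505 and 0.95 in Psc_Suz2, beside −0.66, −0.53, −0.35 and 0.21 over all called genes. Changes of at least 2-fold numbered 2, 2, 5 and 14 members, and in Psc_Suz2 11 of these were higher and 3 lower. Absence of a member from a table says nothing on whether it changed, since genes outside the calls are not included.

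**Figure D1:**
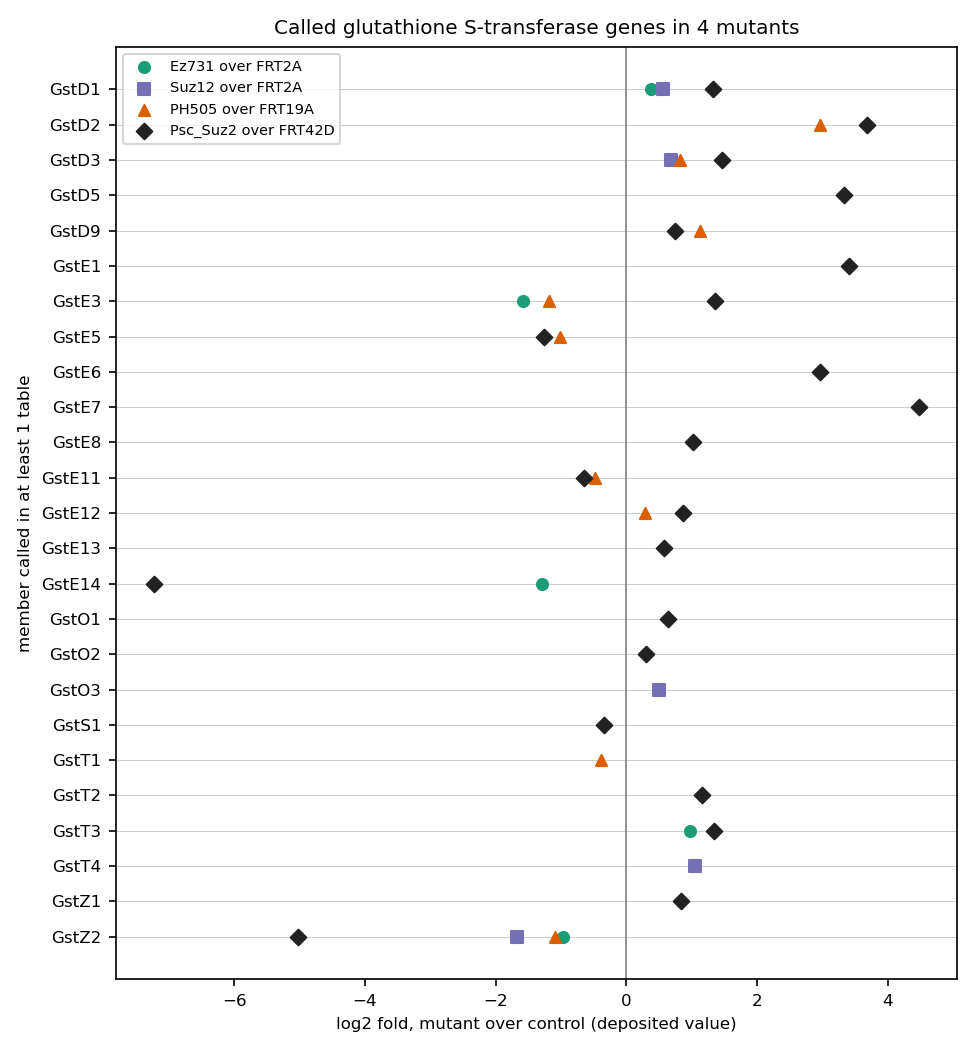
Deposited log2 fold of mutant over control for the 25 members called in at least 1 table, 1 point per table in which the gene was called. With the tables as labelled, points of Delta genes all lie right of 0, those of GstZ2 all lie left of it, and GstE14 in Psc_Suz2 lies farthest left at −7.23.

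Delta class genes were higher in every table that lists them. This held in 11 of 11 calls as the tables are labelled and in 8 of 8 without PH505. These calls come from 5 genes, most of them called more than once, and Ez731 and Suz12 share the FRT2A control. In Ez731, Suz12, PH505 and Psc_Suz2, 9.09%, 18.2%, 27.3% and 45.5% of the class were called. Of all genes 9.87%, 14.6%, 26.7% and 69.4% were called, and of all called genes 35.0%, 40.3%, 45.3% and 51.1% were higher. If the PH505 folds had the opposite sign, 8 of 11 calls would be higher. GstD1 (FBgn0001149), the most studied Delta enzyme, known for DDT metabolism and as a reporter of CncC activity, was called in 3 of the 4 mutants. Its computed level was 694 CPM in Ez731 discs and 532 CPM in FRT2A discs (log2 fold 0.38, adjusted p = 0.0132 in the authors' deposited table). It was 775 CPM in Suz12 discs and 525 CPM in FRT2A discs (deposited log2 fold 0.56, adjusted p = 0.000111). In Psc_Suz2 discs it reached 1114 CPM, against 442 CPM in FRT42D discs (deposited log2 fold 1.33, adjusted p = 2.26e-53). GstD1 is not listed for PH505, where the smallest fold called among genes of log2 CPM 8 or more was 0.22 in absolute value. The median of those called folds was 0.39. The smallest is no limit for GstD1, whose change in that table is unknown.

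GstD3 (FBgn0010039), whose protein lacks the stretch that carries the active-site serine of its class, was also called in 3 tables. The computed level was 50.9 CPM in Suz12 discs and 31.5 CPM in FRT2A discs, with a deposited log2 fold of 0.69 (adjusted p = 4.5e-06). For PH505 it was 26.6 CPM, against 15.1 CPM in FRT19A discs (deposited log2 fold 0.82, adjusted p = 0.000185). In Psc_Suz2 discs it was 70.6 CPM, against 25.5 CPM in FRT42D discs (deposited log2 fold 1.47, adjusted p = 1.14e-41). GstD1 and GstD3 were thus both higher in the Suz12 and Psc_Suz2 tables, which rest on different controls.

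GstD2 and GstD9 were called in Psc_Suz2 and in the table labelled PH505 and GstD5 in Psc_Suz2 alone, the 2 tables with the largest shares of all genes called (69.4% and 26.7%). None of the 3 is listed for Ez731 or Suz12 (9.87% and 14.6%). GstD2 (FBgn0010038), which acts on isothiocyanates, had a computed 1.61 CPM in PH505 discs and 0.206 CPM in FRT19A discs (deposited log2 fold 2.96, adjusted p = 4.35e-06). It had 5.61 CPM in Psc_Suz2 discs and 0.439 CPM in FRT42D discs (deposited log2 fold 3.68, adjusted p = 2.83e-15). GstD5 (FBgn0010041) had 2.07 CPM in Psc_Suz2 discs and 0.205 CPM in FRT42D discs (deposited log2 fold 3.34, adjusted p = 2.04e-07). At control levels under 1 CPM the fold depends on the small count that the fit adds, so these folds are estimates and no bounds.

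GstD9 (FBgn0038020) was higher in the same 2 tables as GstD2. The computed level was 13.4 CPM in PH505 discs and 6.11 CPM in FRT19A discs (deposited log2 fold 1.13, adjusted p = 0.000145), and 12.3 CPM in Psc_Suz2 discs and 7.37 CPM in FRT42D discs (deposited log2 fold 0.74, adjusted p = 0.00502). GstD4, GstD6, GstD7, GstD8, GstD10 and GstD11 are in none of the 4 tables.

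**Figure D2:**
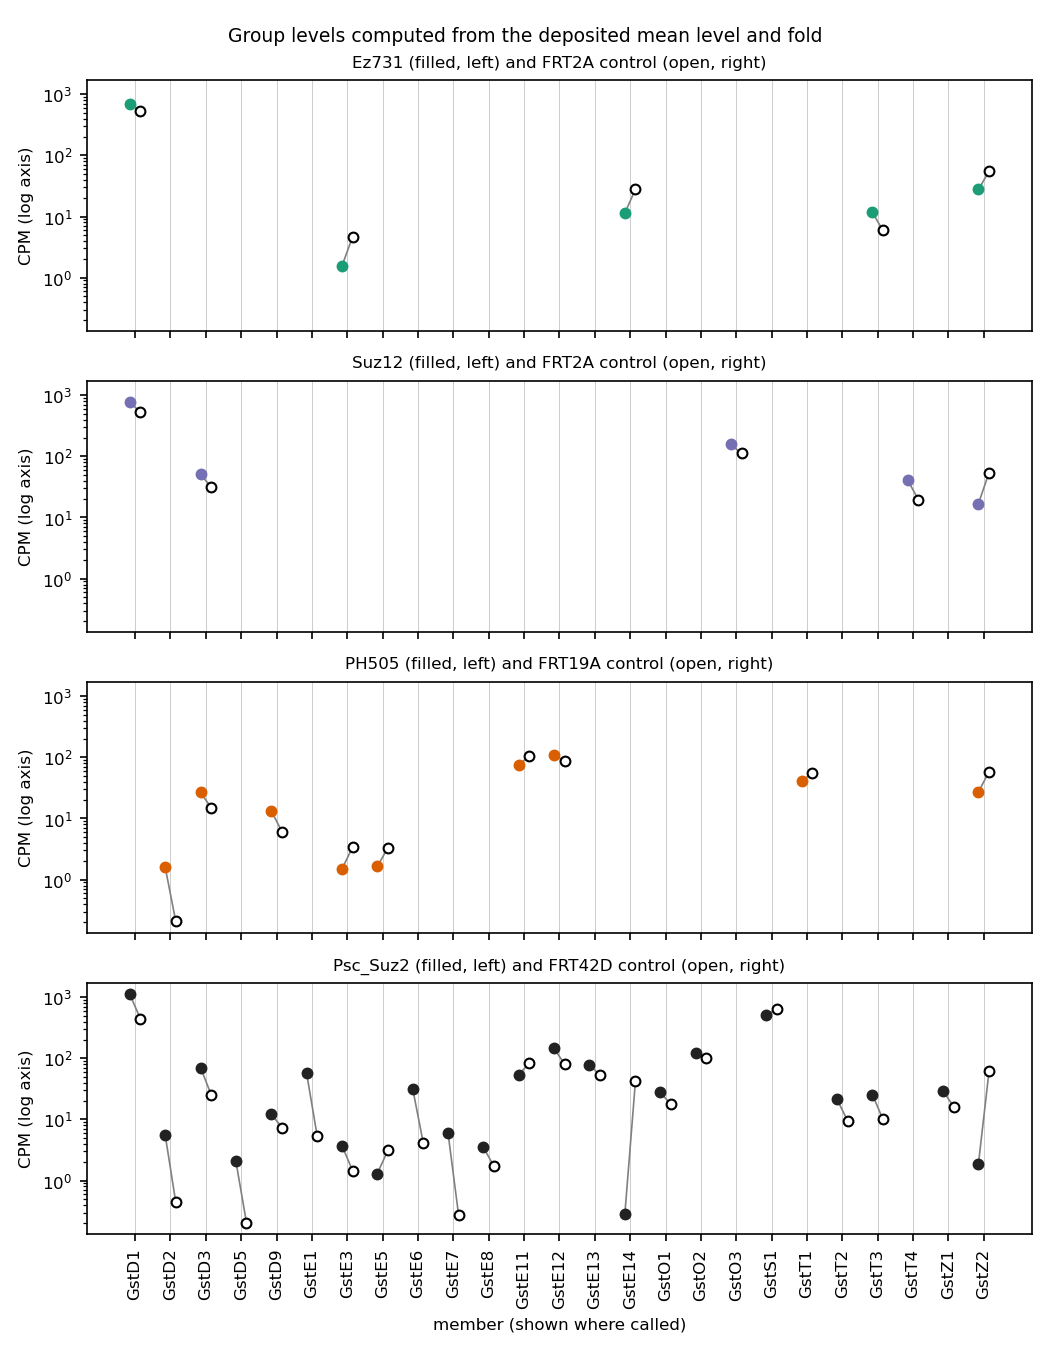
Computed level in CPM, on a log axis, of each called member in the mutant (filled, left) and its control (open, right), 1 panel per mutant. In Psc_Suz2 the points of GstE1, GstE6 and GstE7 lie above their controls and those of GstE14 and GstZ2 far below, at 0.282 and 1.88 CPM.

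Epsilon class genes moved in both directions. Among the 14, the authors' deposited Psc_Suz2 table had 10 called, 7 higher and 3 lower (71.4%, beside 69.4% of all genes). For PH505 4 of 14 were called, 1 higher and 3 lower (28.6%, beside 26.7%). Ez731 had 2 called, both lower (14.3%, beside 9.87%), and Suz12 none, beside 14.6% of all genes. Apart from Suz12, these shares lay close to those of all genes.

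The largest rise of the family was that of an Epsilon gene in Psc_Suz2 discs. GstE7 (FBgn0063493) had a computed 5.98 CPM there and 0.269 CPM in FRT42D discs, with a deposited log2 fold of 4.48 (adjusted p = 2.53e-22), the 83rd highest of 3154 higher genes. GstE1 (FBgn0034335) had 56.9 CPM in Psc_Suz2 discs and 5.35 CPM in FRT42D discs (deposited log2 fold 3.41, adjusted p = 3.13e-64). GstE6 (FBgn0063494) had 31.9 CPM in Psc_Suz2 discs and 4.11 CPM in FRT42D discs (deposited log2 fold 2.96, adjusted p = 1.87e-19). GstE7 lay under 1 CPM in the control, so the size and rank of its fold depend on the small count that the fit adds. GstE1 and GstE6 were several CPM in the control already, so their folds do not rest on a control near 0.

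Smaller rises in the authors' deposited Psc_Suz2 table were those of GstE8 (log2 fold 1.03), GstE12 (0.87) and GstE13 (0.58). GstE12 (FBgn0027590) was also higher in the table labelled PH505, at 108 CPM in PH505 discs and 88.1 CPM in FRT19A discs (deposited log2 fold 0.29, adjusted p = 0.0232). GstE11 (FBgn0034354) was lower in both, at 75.6 CPM in PH505 discs and 105 CPM in FRT19A discs (deposited log2 fold −0.48, adjusted p = 0.000835), and at 53.8 CPM in Psc_Suz2 discs and 84.2 CPM in FRT42D discs (deposited log2 fold −0.64, adjusted p = 4.53e-12). GstE5 was lower in the same 2 deposited tables, by −1.02 and −1.26 (adjusted p = 0.0258 and 0.00487), with computed levels between 1.30 and 3.33 CPM in the 4 groups.

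GstE3 (FBgn0063497) was called with opposite signs. Its computed level was 1.55 CPM in Ez731 discs and 4.65 CPM in FRT2A discs (deposited log2 fold −1.58, adjusted p = 0.00241), and 1.49 CPM in PH505 discs and 3.40 CPM in FRT19A discs (deposited log2 fold −1.19, adjusted p = 0.00774). It was 3.72 CPM in Psc_Suz2 discs and 1.45 CPM in FRT42D discs (deposited log2 fold 1.36, adjusted p = 0.000337). The FRT42D level was thus the lowest of the 3 control levels, and GstE3 was the only member called higher in one table and lower in another, as the tables are labelled and also without PH505. If the PH505 folds had the opposite sign, 8 members would be so.

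GstE14 (FBgn0033817), the ecdysteroid synthesis gene, had the largest change of the family. Its computed level was 0.282 CPM in Psc_Suz2 discs and 42.2 CPM in FRT42D discs, and its deposited log2 fold of −7.23 (adjusted p = 1.32e-148) was the 14th lowest of 3016 lower genes. With the mutant under 1 CPM, the size and rank of that fold depend on the small count that the fit adds. In Ez731 discs it was 11.4 CPM, against 27.9 CPM in FRT2A discs (deposited log2 fold −1.29, adjusted p = 6.92e-06). It is not listed for Suz12 or PH505.

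Genes for other steps of ecdysteroid synthesis, a list of 9 genes including GstE14 that was chosen after the value of GstE14 was seen, are known to be expressed in the prothoracic gland rather than in discs. Of these, 5 were called in Psc_Suz2, all lower, with deposited log2 folds of −6.89 for phtm, −6.12 for sad, −5.97 for sro and −3.65 for dib. Their summed computed level with GstE14 was 14.9 CPM in Psc_Suz2 discs and 1053 CPM in FRT42D discs. In Ez731, 4 were called, all lower (sro −1.21, sad −0.90 and phtm −0.75 in the authors' deposited table), with a sum of 577 CPM in Ez731 discs and 1038 CPM in FRT2A discs. For PH505 phtm and sad alone were called, both lower, and in Suz12 none of the 9. Shares of this list called were 44.4%, 0%, 22.2% and 55.6% in Ez731, Suz12, PH505 and Psc_Suz2. Of all genes 9.87%, 14.6%, 26.7% and 69.4% were called in the same order. GstE14 and sro were called in the same 2 tables, while phtm and sad were called for PH505 too and dib in Psc_Suz2 alone. In Psc_Suz2 discs sro had 0.9965 CPM, so the size of its fold there depends on the small count that the fit adds. In bulk RNA, fewer cells of a type and less RNA per cell cannot be told apart, and the part of gland tissue in the GstE14 values was not tested.

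**Figure D3:**
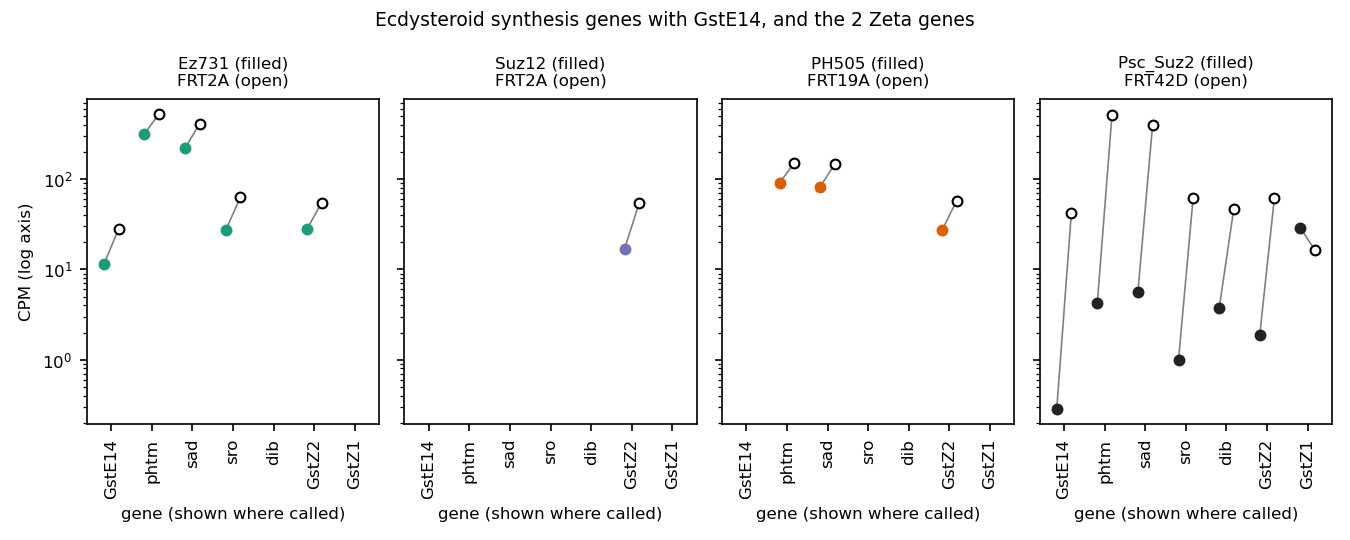
Computed levels in CPM, on a log axis, of GstE14, the other called ecdysteroid synthesis genes and both Zeta genes in mutants (filled) and controls (open), shown where called. In Psc_Suz2 all 5 ecdysteroid synthesis genes and GstZ2 lie below their controls, while GstZ1 lies above its own.

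The pair of Zeta genes went opposite ways in Psc_Suz2. GstZ2 (FBgn0037697) was the only member called in all 4 tables, lower in each as they are labelled. Its computed level was 27.8 CPM in Ez731 discs and 54.7 CPM in FRT2A discs (deposited log2 fold −0.98, adjusted p = 3.55e-09), and 16.9 CPM in Suz12 discs and 54.0 CPM in FRT2A discs (deposited log2 fold −1.68, adjusted p = 1.39e-27). For PH505 it was 27.2 CPM, against 58.0 CPM in FRT19A discs (deposited log2 fold −1.09, adjusted p = 9.52e-09). In Psc_Suz2 discs it was 1.88 CPM, against 61.3 CPM in FRT42D discs (deposited log2 fold −5.03, adjusted p = 7.41e-135). The control levels of GstZ2 lay between 54.0 and 61.3 CPM in all 3 FRT backgrounds, and the mutant levels were all lower. The tables have their own mean level for each gene, so levels set across FRT backgrounds come from separate normalizations.

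GstZ1 (FBgn0037696), its neighbour, had 29.1 CPM in Psc_Suz2 discs and 16.3 CPM in FRT42D discs (deposited log2 fold 0.84, adjusted p = 2.86e-07) and is in no other table. Of 7 genes of tyrosine breakdown, a list chosen after the GstZ2 values were seen, the deposited Psc_Suz2 table also gave 1.00 for Hn, which makes tyrosine from phenylalanine. That call was just inside the 5% limit (adjusted p = 0.0487), at 1.75 CPM in Psc_Suz2 discs and 0.879 CPM in FRT42D discs. Hn was lower in Ez731 (−2.21) and Suz12 (−2.47), where Faa, which acts on the product of the Zeta enzyme, was higher in Suz12 (1.54). Faa had 0.917 CPM in FRT2A discs. With controls under 1 CPM, the folds of Hn in Psc_Suz2 and of Faa depend on the small count that the fit adds. GstZ2, itself on that list, was its only gene called lower in all 4 deposited tables. That lends no support, since the list was chosen after the values of GstZ2 were seen. Of the 7 genes, 5, 4, 6 and 4 are not listed for Ez731, Suz12, PH505 and Psc_Suz2. The shares called were 28.6%, 42.9%, 14.3% and 42.9% in that order, beside 9.87%, 14.6%, 26.7% and 69.4% of all genes.

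Markers of tissues that the sample could hold were set beside these genes. Eye disc markers (12 genes) were lower wherever called, 12 of 12 in Ez731, Suz12 and Psc_Suz2 and 11 of 11 in PH505, with median deposited log2 folds of −1.25, −1.77, −3.95 and −0.96. The summed level of the called markers, which for PH505 leaves out 1 of the 12, was 1155, 817, 1342 and 300 CPM in Ez731, Suz12, PH505 and Psc_Suz2 discs, against 2629, 2596, 2475 and 2599 CPM in the matching controls. In Ez731, Suz12, PH505 and Psc_Suz2, 100%, 100%, 91.7% and 100% of these markers were called, beside 9.87%, 14.6%, 26.7% and 69.4% of all genes. Of all called genes 35.0%, 40.3%, 45.3% and 51.1% were higher. The part of eye disc cells in the GstZ2 values was not tested.

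Of 10 fat body markers, 8 of 8, 8 of 8 and 7 of 7 called were lower in the deposited Ez731, Suz12 and PH505 tables, and in Psc_Suz2 1 of 2 called was higher. The sum over the called markers was 419 CPM in Ez731 and 3000 CPM in FRT2A discs, 408 CPM in Suz12 and 2961 CPM in FRT2A discs (8 genes each), and 76.5 CPM in PH505 and 611 CPM in FRT19A discs (7 genes). In Psc_Suz2 only Fbp1 and Lsp1beta were called, with a sum of 56.9 CPM in mutant and 69.0 CPM in FRT42D discs, so these sums cover different genes and are not compared across tables. Hemocyte markers, of blood cells, were lower in 9 of 9 called genes in Ez731, Suz12 and PH505, and higher in 9 of 10 in Psc_Suz2, where the sum of the 10 was 834 CPM in mutant and 438 CPM in FRT42D discs. The gene lz is on both this list and that of eye disc markers. In Psc_Suz2 lz was the 1 lower hemocyte marker, at 20.25 CPM in mutant and 108 CPM in FRT42D discs. The muscle markers called were all lower in Ez731 (6), Suz12 (6) and PH505 (8), and 6 of 8 were lower in Psc_Suz2. Of 7 gut and Malpighian tubule markers 1 was called in each table, Drip in Ez731, Suz12 and Psc_Suz2 and epsilonTry for PH505. Of fat body markers 80%, 80%, 70% and 20% were called in Ez731, Suz12, PH505 and Psc_Suz2. For hemocyte markers the shares were 75%, 75%, 75% and 83.3%. For muscle markers they were 60%, 60%, 80% and 80%, and for gut markers 14.3% in each. Of all genes 9.87%, 14.6%, 26.7% and 69.4% were called, and of all called genes 35.0%, 40.3%, 45.3% and 51.1% were higher. What part these tissues have in the GST values was not tested.

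Called Theta, Omega and Sigma genes had absolute log2 folds of at most 1.34. GstT3 (FBgn0031117) had 11.7 CPM in Ez731 discs and 5.92 CPM in FRT2A discs (deposited log2 fold 0.98, adjusted p = 0.0215), and 25.5 CPM in Psc_Suz2 discs and 10.1 CPM in FRT42D discs (deposited log2 fold 1.34, adjusted p = 1.64e-13). GstT2 was higher in the deposited Psc_Suz2 table (1.16, adjusted p = 1.98e-09) and GstT4 in that of Suz12 (1.05, adjusted p = 1.36e-07). GstT1, next to GstT2, was lower in the table labelled PH505 (−0.39), with an adjusted p of 0.0418 that was the closest of all members to the 5% limit.

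Omega enzymes have a cysteine in the active site and reduce thiols and dehydroascorbate. In the authors' deposited tables GstO3 was higher in Suz12 (0.50, adjusted p = 0.0032), and GstO1 (0.64) and GstO2 (0.30) were higher in Psc_Suz2 (adjusted p = 3e-05 and 0.000307). The fourth Omega gene, se, which makes an eye pigment precursor, lies between GstO3 and GstO2 and is in none of the tables. GstS1 (FBgn0010226), the Sigma enzyme, which acts on products of lipid peroxidation, was 506 CPM in Psc_Suz2 discs and 643 CPM in FRT42D discs (deposited log2 fold −0.35, adjusted p = 1.32e-05).

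Most members lie in 2 runs of neighbouring genes in the Release 6 gene table, which was used for gene order only because the reads were mapped to BDGP5. All 11 Delta genes form a run on 3R, interrupted by 1 long noncoding RNA gene and CG10035. GstD9, GstD1, GstD2, GstD3 and GstD5, called in Psc_Suz2, stand between members that are not listed. The Epsilon run on 2R holds 10 genes, GstE10 and GstE1 to GstE9, with 2 pseudogenes inside it. In that run GstE5 was lower in Psc_Suz2 while GstE6, GstE7 and GstE8 next to it were higher, and GstE10, GstE2, GstE4 and GstE9 are not listed.

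In that annotation 7 members overlap another gene: GstE1 and GstE10 each other by 127 bases, GstE9 imd by 40, GstE12 CG3894 by 33, GstE13 CG18659 by 6, GstO2 se by 61 and GstT2 CG12926 by 223. The library kit named in the labels does not state that strand was kept, so reads in such overlaps may not be assigned to 1 gene. Tandem copies can also share reads of 50 bases, so values of the closest Delta and Epsilon paralogs are uncertain where the counting could split them.

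**Figure D4:**
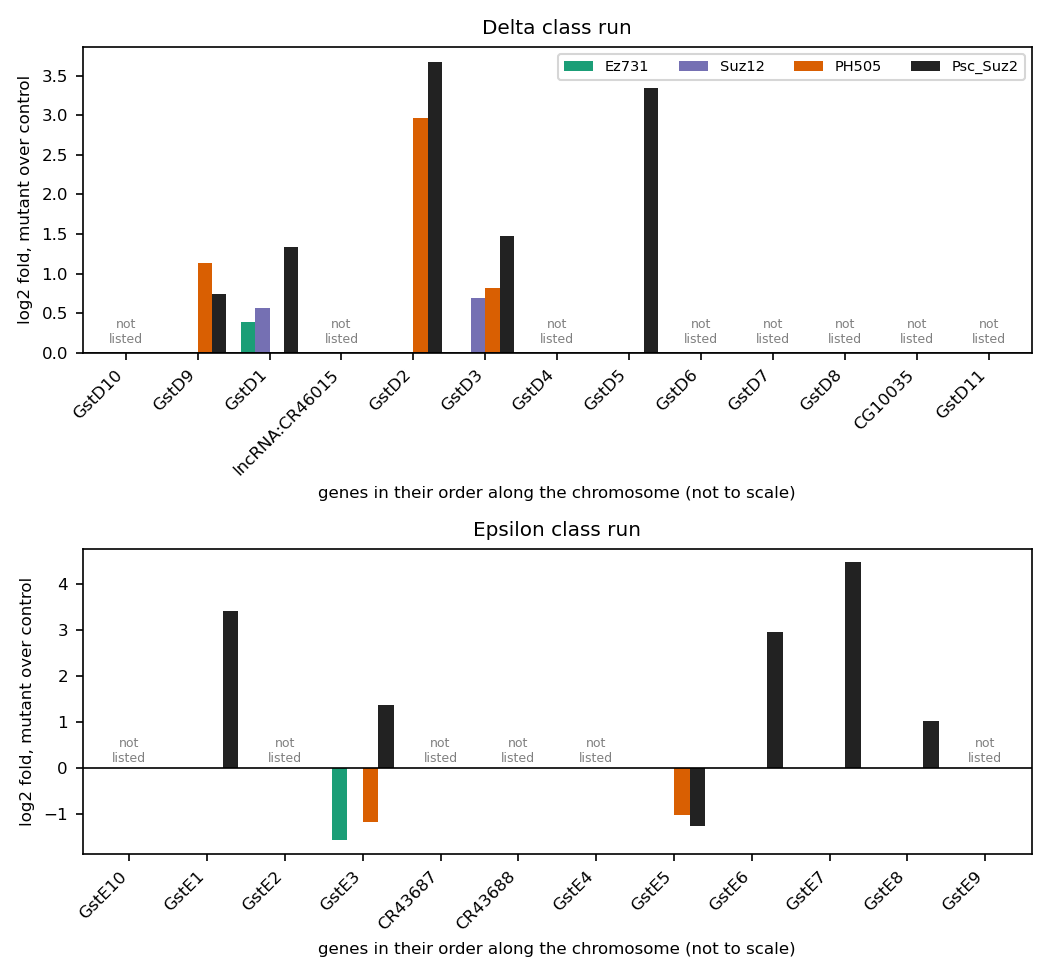
Deposited log2 folds along the Delta run (top) and the Epsilon run (bottom), with genes in chromosomal order and not to scale. Bars stand only where a gene was called, and "not listed" marks genes in none of the 4 tables. With the tables as labelled all Delta bars point up, while in the Epsilon run GstE3 and GstE5 have bars pointing down.

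Regulators and partners of GSTs were counted from lists of other genes. The transcription factor gene cnc, which encodes CncC among other isoforms, was higher in 3 tables: 256 CPM in Suz12 and 202 CPM in FRT2A discs (deposited log2 fold 0.34, adjusted p = 0.0459), 396 CPM in PH505 and 223 CPM in FRT19A discs (0.83, adjusted p = 6e-19), and 578 CPM in Psc_Suz2 and 202 CPM in FRT42D discs (1.52, adjusted p = 3.96e-87). In the authors' deposited Psc_Suz2 table ref(2)P was also higher (0.68) and Keap1 (−0.36) and Cul3 (−0.32), which together mark CncC for degradation, were lower. None of these 5 CncC regulators is listed for Ez731. Shares of the 5 called were 0%, 20%, 20% and 80% in Ez731, Suz12, PH505 and Psc_Suz2. Of all genes 9.87%, 14.6%, 26.7% and 69.4% were called in the same order.

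Glutathione synthesis and turnover genes (13) had 7 higher and 2 lower in Psc_Suz2, with deposited log2 folds of 1.89 for Zw and 1.65 for Men, which make NADPH, 1.51 for Gclm, a subunit of the enzyme that starts glutathione synthesis, and −1.39 for Ggt-1. For PH505 it was 4 higher and 1 lower (Zw 1.15, Men 0.64), in Suz12 1 and 1 (Zw 0.60, Men −0.65), and in Ez731 Men alone was called (−0.92). Antioxidant enzymes (15) were 4 higher and 4 lower in the deposited Psc_Suz2 table (Sod3 −2.87, Trx2 1.15, Prx2 1.08, Cat −0.89). They were 0 higher and 5 lower for PH505 (Sod3 −0.77, Cat −0.61), and 1 was called in each of Ez731 (Prx2 −0.35) and Suz12 (MsrA 0.39). Gtpx, lower for PH505, is on both lists. In the order Ez731, Suz12, PH505 and Psc_Suz2, 7.69%, 15.4%, 38.5% and 69.2% of the glutathione list were called. For antioxidant enzymes the shares were 6.67%, 6.67%, 33.3% and 53.3%, beside 9.87%, 14.6%, 26.7% and 69.4% of all genes.

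Other detoxification families were called in both directions. Cytochrome P450 genes (87), which oxidise foreign compounds and steroids, were 21 higher and 11 lower in Psc_Suz2, led by Cyp6a9 (deposited log2 fold 6.24) and Cyp6a20 (5.43). They were 5 higher and 4 lower for PH505 (Cyp12c1 −2.22, Cyp6a20 2.19), 3 higher and 8 lower in Suz12 (Cyp4s3 −2.52), and 2 higher and 11 lower in Ez731 (Cyp28a5 −2.35). UDP-glycosyltransferases (35), which add sugars, were 5 higher and 5 lower in Psc_Suz2 (Ugt36D1 −5.84, Ugt35A1 5.11), 0 and 8 for PH505, 1 and 0 in Suz12, and 2 and 0 in Ez731. Of 7 ABC exporters, the deposited Psc_Suz2 table had 3 higher (MRP 1.80) and 3 lower (Mdr65 −3.36, Mdr49 −2.68, Mrp5 −2.34). Mdr49 was the 1 exporter called in Ez731 (0.64) and Suz12 (0.67), higher in both, and for PH505 MRP was higher (0.45) and Mdr49 lower (−0.59). Cyp6a9, Cyp6a20, Cyp12c1, Cyp4s3, Cyp28a5, Ugt36D1 and Mrp5 lay under 1 CPM in mutant or control in each table for which a fold is given. The size of those folds depends on the small count that the fit adds. In the order Ez731, Suz12, PH505 and Psc_Suz2, 14.9%, 12.6%, 10.3% and 36.8% of the cytochrome P450 list were called. For UDP-glycosyltransferases the shares were 5.71%, 2.86%, 22.9% and 28.6%, and for exporters 14.3%, 14.3%, 28.6% and 85.7%. Of all genes 9.87%, 14.6%, 26.7% and 69.4% were called, and how many genes of each list were tested is unknown.

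Of 6 genes with a GST-like fold outside the 6 classes, 0, 1, 1 and 4 were called in Ez731, Suz12, PH505 and Psc_Suz2, beside 9.87%, 14.6%, 26.7% and 69.4% of all genes. In the authors' deposited Psc_Suz2 table Clic (1.42), Gdap1 (1.31) and eEF1gamma (0.72) were higher and gfzf (−0.33) lower. The microsomal Mgstl was higher in Suz12 (0.80) and lower for PH505 (−0.52). JNK signalling genes (9), a stress pathway, were higher in 2 of 2, 4 of 4, 4 of 5 and 7 of 8 called in Ez731, Suz12, PH505 and Psc_Suz2. Deposited log2 folds of Ets21C, a transcription factor gene, were 1.58, 2.23, 4.39 and 5.57. The 1 lower gene for PH505 and for Psc_Suz2 was NLaz (−0.97 and −4.98). NLaz had 0.206 CPM in Psc_Suz2 discs, so the size of its fold there depends on the small count that the fit adds. Heat shock protein genes (16) had 0 of 2, 0 of 5, 2 of 5 and 1 of 13 called members higher in the same order, with Hsp23 at −0.88, −1.27, −1.04 and −2.16. In that order 22.2%, 44.4%, 55.6% and 88.9% of the JNK list and 12.5%, 31.25%, 31.25% and 81.25% of the heat shock list were called.

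**Figure D5:**
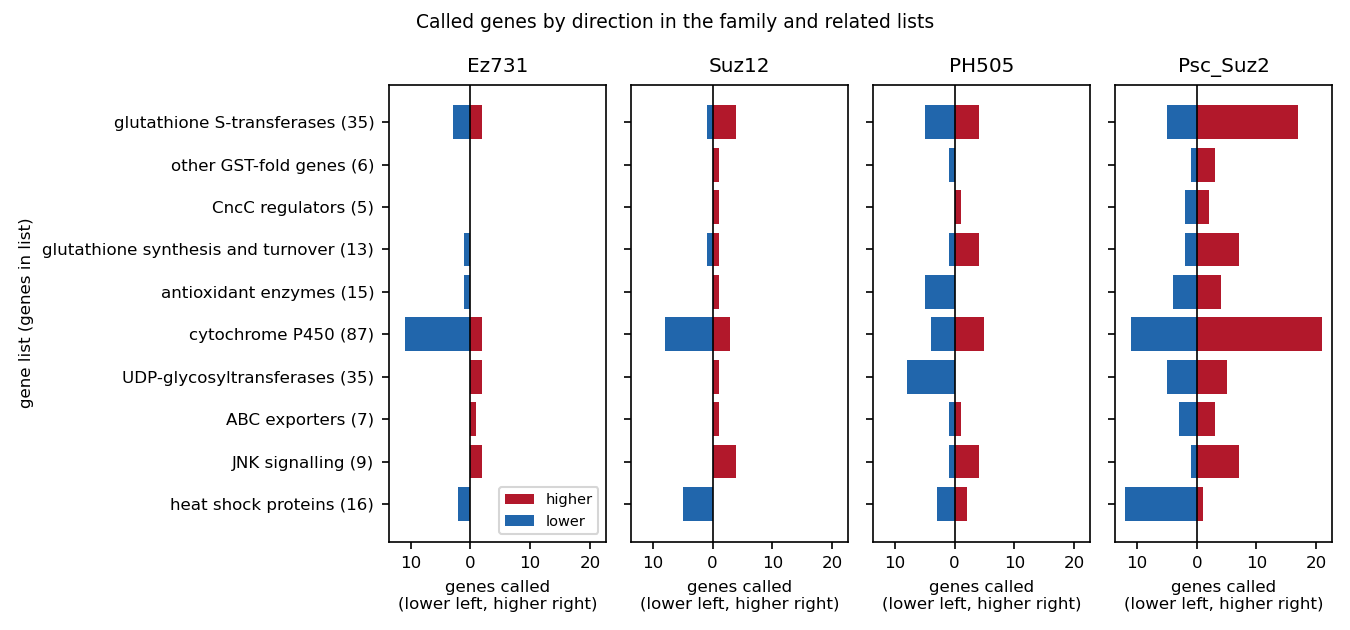
Number of called genes that were lower (bars to the left) and higher (bars to the right) in each mutant for the GST family and 9 related lists, with the number of genes of each list in brackets. GSTs (17 higher, 5 lower) and P450 genes (21 higher, 11 lower) extend mostly to the right in Psc_Suz2, and heat shock protein genes (1 higher, 12 lower) to the left.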

How the data were processed

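The authors compared RNA-seq of mutant and control eye discs. The submitters' processing notes name edgeR 2.6.2, Bowtie2 2.1.0.0, TopHat2 2.0.8b and the BDGP5 build. How the replicates entered edgeR is not given in those sources. The deposited log2 fold and log2 CPM values come from the authors, per the file headers, as do the deposited p-value and false discovery rate. The tables list only genes under a 5% false discovery rate. Libraries were made from 1 microgram of RNA with 15 PCR cycles, without molecular identifiers, and depth is unknown. What spread the p-values measure is therefore unknown, and it may be technical.

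Computed here were the levels per group, the number of genes tested (the most frequent value of adjusted p multiplied by rank and divided by p, tested on simulated data), and counts. No model could be fitted without counts per replicate. Symbols came from a gene table, with 43, 72, 136 and 289 identifiers of Ez731, Suz12, PH505 and Psc_Suz2 without one. All members and lists were chosen with earlier results of these data known, and 2 lists after member values were seen. Every member could be named, and up to 4 genes per list and table, by size of change. The ChIP-seq regions were not used here, since no build is named for them. Alternatives were expression no lower than the table median, a limit of 1% on adjusted p, at least a 2-fold difference, inclusion of se, the mean, and, added after the data were seen, leaving out PH505 or turning its direction. Python 3.11.15 with numpy 2.4.6, pandas 2.3.3 and matplotlib 3.10.9 was used.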

Additional observations from a re-analysis of the deposited data

Results flagged for a closer look

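GstE3 was called in opposite directions: its deposited log2 folds were −1.58 in Ez731 and −1.19 in the table labelled PH505, and 1.36 in Psc_Suz2. The difference between mutants was not tested. Computed levels of GstE3 were low, 1.55, 1.49 and 3.72 CPM in Ez731, PH505 and Psc_Suz2 discs, against 4.65, 3.40 and 1.45 CPM in their controls.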

How the results depend on the processing

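No paired analysis was possible because each table holds 1 value per gene for replicates 1 and 2 together, which also leaves no replicate to leave out. Promoter motifs and protein comparisons were not run here, for lack of sequences. Adding se and synonyms changed no count. In the order Ez731, Suz12, PH505 and Psc_Suz2, changes of at least 2-fold left 2, 2, 5 and 14 members called, 0, 1, 2 and 11 higher and 2, 1, 3 and 3 lower, with the median fold at −0.31 in Suz12, turned in sign, and −1.02 for PH505. Expression at or above the table median left 2, 5, 2 and 7 members called, 1, 4, 1 and 5 higher and 1, 1, 1 and 2 lower, with a median fold of −0.30 in Ez731. At a 1% false discovery rate Ez731 kept 3 calls with 0 higher, and PH505 kept 3 lower, where the median turned to 0.17, and the mean in place of the median gave 0.11. Each of these 3 settings can only remove calls. Without PH505, 6 members in place of 11 were called in at least 2 tables and 2 in place of 4 in at least 3, and GstZ2 was lower in all 3 remaining tables. With the direction of PH505 turned, 8 members in place of 1 had opposite directions in 2 tables. Low expression limits what could be listed: among genes under a log2 CPM of 2 the smallest called fold was 1.11, 1.02, 0.85 and 0.70 in absolute value.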

Other observations

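Control levels of the same gene were side by side in the 3 FRT backgrounds for members called in several tables, with no test. GstD3 had a computed 31.5 CPM in FRT2A, 15.1 CPM in FRT19A and 25.5 CPM in FRT42D discs. GstE3 had 4.65, 3.40 and 1.45 CPM and GstZ2 54.7, 58.0 and 61.3 CPM in the same order. GstE14 had 27.9 CPM in FRT2A and 42.2 CPM in FRT42D discs. Levels from different tables come from separate normalizations.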
